A study of Mus musculus with 6 samples.

Results

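The genes described here carry the transforming growth factor beta (TGF-beta) signal from ligand to nucleus. They are the 10 genes Tgfb1, Tgfbr1, Tgfbr2, Eng, Smad2, Smad3, Smad4, Smad7, Ski and Skil, given by symbol, among 47729 genes in the table. Earlier results of these data were known when they were chosen. All 10 were found by Ensembl identifier in the GRCm38 annotation, and all 10 passed the filter on low counts, which left 15686 genes to test. RNA came from bone marrow of mice lacking the SNORD113-114 cluster, box C/D small nucleolar RNAs of the imprinted Dlk1-Meg3 region (cluster KO, 3 libraries), and of wildtype mice (3 libraries). The sources used here do not give strain, age, how the deletion was made or any sorting of the cells. Nothing in the labels ties a library to 1 animal, so the p-values measure the spread between libraries. The series title asks how the cluster bears on self-renewal of hematopoietic stem cells and on translation.

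TGF-beta is a secreted dimer that is stored in a latent complex and binds a type II receptor, which then phosphorylates a type I receptor. The type I receptor phosphorylates the receptor-regulated SMADs, Smad2 and Smad3, which join Smad4 and enter the nucleus. Smad7 blocks the receptor step, and Ski and Skil repress SMAD target genes in the nucleus. In marrow the pathway is known for holding stem cells in quiescence, and platelets and their megakaryocyte precursors store much of the ligand.

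Promoter sequences are shown for Tgfb1 and Tgfbr1, the ligand and the receptor whose transcript levels went in opposite directions. The windows run from 250 bases before to 50 after a transcript start (RefSeq, GRCm38.p6, plus strand for both genes), and capitals mark the core of the CAGA box that SMAD3 and SMAD4 bind, CAGACA on either strand.
Tgfb1, chr7:25686752-25687051: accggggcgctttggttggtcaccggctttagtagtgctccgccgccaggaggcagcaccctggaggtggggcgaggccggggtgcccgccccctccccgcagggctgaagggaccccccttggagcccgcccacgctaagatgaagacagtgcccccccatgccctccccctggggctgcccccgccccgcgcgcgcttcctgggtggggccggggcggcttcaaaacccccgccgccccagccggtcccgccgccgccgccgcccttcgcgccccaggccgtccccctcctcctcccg
Tgfbr1, first start, chr4:47352972-47353271: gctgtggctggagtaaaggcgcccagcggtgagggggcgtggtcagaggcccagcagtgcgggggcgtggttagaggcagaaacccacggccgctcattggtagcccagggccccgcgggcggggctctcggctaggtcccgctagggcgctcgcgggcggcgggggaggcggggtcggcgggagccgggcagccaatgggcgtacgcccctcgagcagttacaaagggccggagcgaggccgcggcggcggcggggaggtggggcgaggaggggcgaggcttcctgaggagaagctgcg
Tgfbr1, second start, chr4:47385966-47386265: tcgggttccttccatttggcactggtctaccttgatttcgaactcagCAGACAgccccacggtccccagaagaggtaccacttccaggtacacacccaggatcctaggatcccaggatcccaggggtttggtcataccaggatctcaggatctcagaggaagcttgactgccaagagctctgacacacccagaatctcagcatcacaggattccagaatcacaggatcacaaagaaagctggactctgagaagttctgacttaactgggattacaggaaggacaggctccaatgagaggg
The Tgfb1 window and the first Tgfbr1 window held 30 and 34 CpG dinucleotides, against a median of 7 over 32851 RefSeq windows, and the second Tgfbr1 window held 3. The core was found in the second Tgfbr1 window only, among 7 windows of 6 members (Eng, Ski, Smad3 and Tgfbr2 were the others searched). Of all 32851 windows 21.04% held it on either strand. A match in letters is not a binding site, and the window at the second start lies inside the gene.

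The libraries held 17663369 to 23459168 counts assigned to genes, and every member had at least 147 counts in each library. The members' counts were therefore far above the limit that a count of 0 allows (3 counts, 0.126 to 0.17 CPM). The share of reads outside genes was 10.05, 8.59 and 7.29% in the cluster KO libraries and 10.03, 10.497 and 11.06% in the wildtype libraries, so that cluster KO 3 was lowest. The hematopoietic markers Ptprc, Spi1, Kit, Myb, Mpo and Elane had counts in all 6 libraries, but not at even levels. Spi1 was higher and Kit and Myb were lower in cluster KO by an edgeR adjusted p of at most 0.05. Elane was at 710, 2.19 and 171 CPM in cluster KO and at 251, 296 and 113 CPM in wildtype libraries. Summed over fixed marker lists, B lineage genes were at 1971 to 2094 CPM in cluster KO and 620 to 662 CPM in wildtype libraries, and megakaryocyte and platelet genes at 308 to 310 against 464 to 557 CPM. CPM here means normalised read counts on library sizes scaled by TMM, a trimmed mean of M-values. In a bulk sample, fewer cells of a type and less RNA per cell cannot be told apart.

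Of the 10 members, Smad2 and Tgfb1 were higher and Tgfbr1 was lower in the knockout, by an adjusted p of at most 0.05 in the quasi-likelihood test of edgeR. That is 3 of 10, beside 27.9% of all tested genes, so the share called is near the background. Higher calls made up 15.9% and lower calls 12.1% of tested genes. With upper-quartile scaling, which moved the median of all genes by -0.11 on the log2 scale, the split over all genes turned from 2487 higher and 1895 lower to 2100 and 2411. The median log2 fold change of the members was -0.14 beside 0.00 for all tested genes, and their range was -0.51 to 0.82. The genotypes did not overlap in CPM for 5 of the 10, Tgfb1, Tgfbr1, Eng, Smad2 and Ski, where 46.0% of tested genes had no overlap. The plot of CPM by library shows every value.

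**Figure D1:**
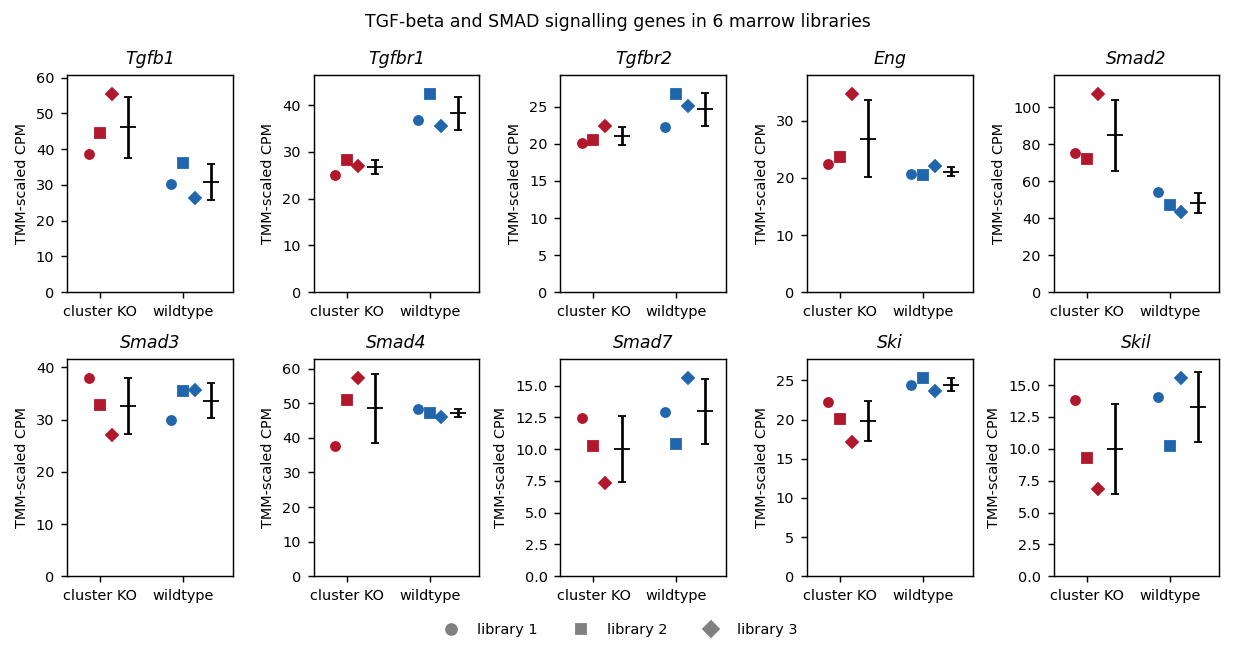
TMM-scaled CPM (vertical axes, from 0) of the 10 genes in 3 cluster KO (red) and 3 wildtype (blue) libraries, one symbol per library, with the mean and SD of each genotype in black (n = 3). Smad2 and Tgfb1 lay higher in all cluster KO libraries and Tgfbr1 lower, while Smad3 and Smad4 overlapped.

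Tgfb1 (chromosome 7, 25687002 to 25705077, mm10) encodes the main TGF-beta ligand of blood cells. It was at 38.5, 44.6 and 55.3 CPM in the cluster KO libraries and at 30.1, 36.01 and 26.2 CPM in the wildtype libraries. Every cluster KO library was above every wildtype library, though cluster KO 1 and wildtype 2 lay close. The mean was 46.1 ± 8.52 (SD, n = 3) against 30.8 ± 4.92 CPM, a 1.499-fold rise (log2 fold change 0.58, SE 0.18, edgeR adjusted p = 0.0378). The call was kept without cluster KO 1 (0.0141) and missed without any other single library, at 0.0946 (cluster KO 2), 0.115 (cluster KO 3), 0.099 (wildtype 1), 0.0521 (wildtype 2) and 0.139 (wildtype 3). It also missed with upper-quartile scaling (0.0576) and once length and GC trends were removed (0.0862). Of the megakaryocyte and platelet markers, 4 of 10 tested fell and 1 rose in the same libraries, and their part in the level of Tgfb1 was not tested.

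Tgfbr1 (chromosome 4, 47353222 to 47414931) encodes the type I receptor kinase. It was at 25.1, 28.2 and 26.9 CPM in cluster KO and at 36.8, 42.3 and 35.6 CPM in wildtype libraries. The groups were well apart and each was tight, with means of 26.8 ± 1.56 against 38.2 ± 3.57 CPM (SD, n = 3). The wildtype level was 1.43 times the cluster KO level (log2 fold change -0.51, SE 0.15, edgeR adjusted p = 0.0274). The adjusted p rose above the threshold without cluster KO 2 (0.0776), wildtype 1 (0.06), wildtype 2 (0.119) or wildtype 3 (0.0573), and without the filter on low counts (0.0529). Its log2 fold change stayed between -0.62 and -0.43 over all 13 alternatives.

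Tgfbr2 (chromosome 9, 116084293 to 116175360) encodes the type II receptor, which binds the ligand first. It measured 20.1, 20.6 and 22.4 CPM in cluster KO and 22.2, 26.7 and 25.1 CPM in wildtype libraries. The groups overlapped, since cluster KO 3 lay just above wildtype 1, and the change did not pass (log2 fold change -0.23, SE 0.16, edgeR adjusted p = 0.308). The sign of this value turned once length and GC trends were removed (0.031).

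Eng (chromosome 2, 32646595 to 32682669) encodes endoglin, a co-receptor known from endothelium and from stem cells. It measured 22.4, 23.6 and 34.6 CPM in cluster KO and 20.7, 20.6 and 22.0 CPM in wildtype libraries. Cluster KO 3 stood apart, while the other two cluster KO libraries lay just above the wildtype range. The change did not pass (log2 fold change 0.35, SE 0.20, edgeR adjusted p = 0.21), and it was 0.12 without cluster KO 3. Endothelial markers summed to 248, 294 and 331 CPM against 178, 208 and 189 CPM, and 4 of 10 tested rose (Pecam1, Emcn, Egfl7 and Esam) while none fell. Kdr, Tek, Tie1, Robo4, Plvap and Stab2 did not pass, and the endothelial genes Cdh5, Flt4 and Ptprb were at 0 to 1.98 CPM, too low to test. Stem cell markers summed to 915, 934 and 935 CPM against 719, 728 and 742 CPM, and 3 of 11 rose while none fell. The part of either cell type in the level of Eng was not tested. Eng shares 61 bases with the antisense gene Fpgs, whose reads cannot be told apart there without strand. Fpgs had a log2 fold change of -0.11 (edgeR adjusted p = 0.595).

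The receptor-regulated SMADs differed from each other. Smad2 (chromosome 18, 76241580 to 76310963) was at 75.0, 72.1 and 107 CPM in cluster KO and at 54.0, 46.9 and 43.3 CPM in wildtype libraries. All cluster KO values were above all wildtype values, with cluster KO 3 highest. The mean was 84.6 ± 19.3 against 48.1 ± 5.43 CPM (SD, n = 3), a 1.76-fold rise (log2 fold change 0.82, SE 0.18, edgeR adjusted p = 0.00886). This was the member with the smallest p, and it ranked 1554th of 15686 tested genes. The call was kept with each library left out in turn (0.0045 to 0.0461). Once length and GC trends were removed, Smad2 was at 0.59 (edgeR adjusted p = 0.0202).

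Smad3 (chromosome 9, 63646767 to 63757994), the close relative of Smad2 that binds DNA directly, measured 37.9, 32.7 and 27.1 CPM in cluster KO and 29.8, 35.5 and 35.6 CPM in wildtype libraries. The cluster KO libraries spanned the whole wildtype range, and the log2 fold change was -0.046 (SE 0.17, edgeR adjusted p = 0.865). Smad4 (chromosome 18, 73639009 to 73703780), the shared partner of both, measured 37.5, 50.9 and 57.2 CPM in cluster KO and 48.4, 47.0 and 46.0 CPM in wildtype libraries. The wildtype libraries agreed closely and the cluster KO libraries lay on both sides of them, with a log2 fold change of 0.042 (SE 0.17, edgeR adjusted p = 0.877). The sign of both values changed under single alternatives. Smad3 moved to 0.071 and Smad4 to -0.093 without cluster KO 3. Smad3 moved to 0.044 once length and GC trends were removed, and Smad4 to -0.073 with upper-quartile scaling. The length trend used the median annotated transcript, 605 bases for Smad3, whose longest transcript is 5090 bases.

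Smad7, Ski and Skil restrain the signal, and none passed the test. Smad7 (chromosome 18, 75367529 to 75395935), the inhibitory SMAD, measured 12.5, 10.2 and 7.34 CPM in cluster KO and 12.9, 10.4 and 15.6 CPM in wildtype libraries (log2 fold change -0.37, SE 0.25, edgeR adjusted p = 0.295). Skil (chromosome 3, 31095058 to 31122577), which encodes the co-repressor SnoN, measured 13.8, 9.26 and 6.83 CPM in cluster KO and 14.0, 10.2 and 15.5 CPM in wildtype libraries (log2 fold change -0.41, SE 0.28, edgeR adjusted p = 0.308). Both genes are themselves known targets of TGF-beta, and both put the 6 libraries in the same order, with cluster KO 3 lowest and wildtype 3 highest. Tgfb1 ran nearly opposite, highest in cluster KO 3 and lowest in wildtype 3, and the share of reads outside genes was likewise lowest in cluster KO 3 and highest in wildtype 3. The part of that share in these levels was not tested. Ski (chromosome 4, 155154075 to 155222592), the other co-repressor, measured 22.2, 20.1 and 17.1 CPM in cluster KO and 24.4, 25.3 and 23.6 CPM in wildtype libraries. Its groups did not overlap, but the change did not pass (log2 fold change -0.30, SE 0.17, edgeR adjusted p = 0.203). In the longest of 10 length classes of tested genes, which holds Ski, the median log2 fold change was also -0.30. Once length and GC trends were removed, Ski was at -0.11 (edgeR adjusted p = 0.624).

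**Figure D2:**
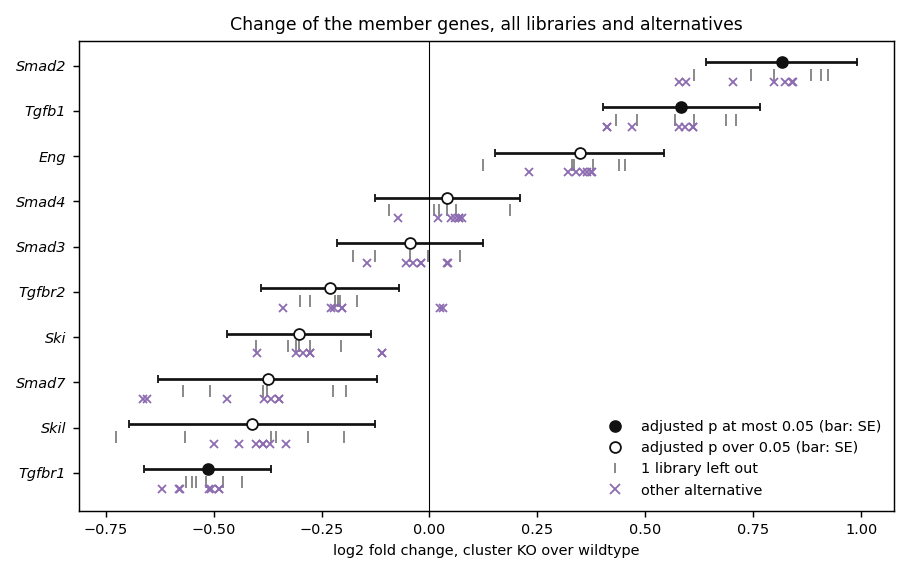
Log2 fold change of cluster KO over wildtype for each gene (circle with SE, filled where the edgeR adjusted p was at most 0.05), with the values after leaving out 1 library (grey ticks) and under the 7 other alternatives (purple crosses). Smad2 (0.82), Tgfb1 (0.58) and Tgfbr1 (-0.51) kept their sign throughout, and Tgfbr2, Smad3 and Smad4 crossed 0 under some alternatives.

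Ratios of counts within a library do not depend on how libraries are scaled to each other, but they keep any trend with transcript length. The 7 pairs were chosen after the values were seen, so they are described without a test. Tgfb1 had 1.53, 1.58 and 2.05 counts per count of Tgfbr1 in the cluster KO libraries and 0.819, 0.851 and 0.737 in the wildtype libraries. The ratio lay above 1 in every cluster KO library and below 1 in every wildtype library, on counts that are not divided by length. The ratio of Tgfbr1 to Tgfbr2 was 1.25, 1.37 and 1.20 against 1.66, 1.59 and 1.42, lower in all cluster KO libraries. The ratio of Smad2 to Smad3 was 1.98, 2.20 and 3.95 against 1.81, 1.32 and 1.22. Cluster KO 1 and wildtype 1 were close together and cluster KO 3 was far above the rest. In the length classes of tested genes that hold Smad2 and Smad3, the median log2 fold changes were 0.32 and -0.32. The part of length in this ratio was not tested. Smad2 to Smad4 stood at 1.999, 1.42 and 1.87 against 1.116, 0.998 and 0.941. Skil to Smad7 stayed between 0.905 and 1.11 in all 6 libraries, and Ski to Skil, at 1.61 to 2.50 and 1.52 to 2.48, overlapped between genotypes.

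**Figure D3:**
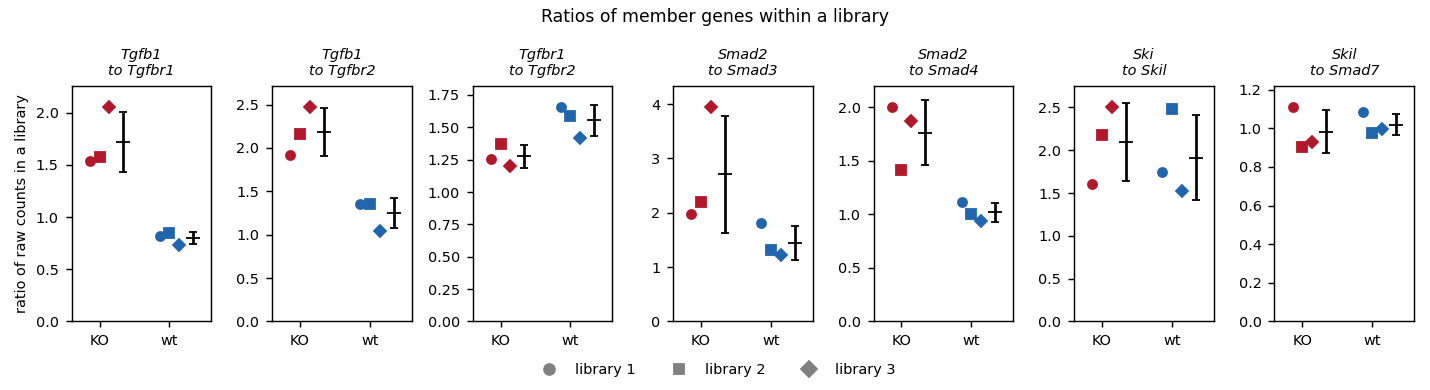
Ratio of the raw counts of 2 genes within each library (vertical axes, from 0) for cluster KO (KO, red) and wildtype (wt, blue), one symbol per library, with mean and SD in black (n = 3). The 7 pairs were chosen after the values were seen. The genotypes did not overlap for 5 of them, each holding Smad2, Tgfb1 or Tgfbr1, the members called above. The share over other gene pairs was not computed. Skil to Smad7 was near 1 in every library.

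Levels of different genes can be compared only per length, and here the order depended on the length used and on the genotype. Per kilobase of the median annotated transcript, mean levels over the 6 libraries were 54.7 ± 6.68 CPM per kilobase (SD, n = 6) for Smad3 and 50.8 ± 18.2 for Smad2. Tgfb1 (17.7 ± 4.81), Smad4 (17.0 ± 2.29) and Tgfbr1 (13.9 ± 2.88 CPM per kilobase) followed, then Smad7 (8.59 ± 2.11) and Eng (7.46 ± 1.66). Ski (4.09 ± 0.564), Skil (3.999 ± 1.16) and Tgfbr2 (3.95 ± 0.444 CPM per kilobase) were lowest and lay within their spread of each other. These means pool both genotypes, and the order within them differed. In cluster KO libraries Smad2 stood at 64.9 ± 14.8 and Smad3 at 53.8 ± 8.92 CPM per kilobase, and in wildtype libraries at 36.8 ± 4.16 and 55.6 ± 5.45 (SD, n = 3). Tgfb1, at 21.2 ± 3.92, lay above Smad4, at 17.3 ± 3.58 CPM per kilobase, in cluster KO and below it in wildtype libraries (14.2 ± 2.26 against 16.8 ± 0.42). Eng lay above Smad7 in cluster KO (8.36 ± 2.10 against 7.49 ± 1.92) and below it in wildtype libraries (6.57 ± 0.256 against 9.70 ± 1.93 CPM per kilobase). The crossings of Tgfb1 with Smad4 and of Eng with Smad7 were seen per median transcript only. Per kilobase of all exons joined, Eng lay above Smad7 in cluster KO (6.63 against 2.21) and wildtype libraries (5.21 against 2.87). Tgfb1 lay below Smad4 in both by that length (9.15 against 13.1 and 6.11 against 12.7). Per kilobase of the longest transcript, Tgfb1 lay above Smad4 in both (21.2 against 14.3 and 14.2 against 13.9). The median transcript of Smad3 is only 605 bases. Per kilobase of the longest transcript, the order of the means over 6 libraries was Tgfb1 (17.7), Smad4 (14.1), Smad2 (8.20), Eng (7.005), Smad3 (6.50), Tgfbr1 (5.65), Ski (4.01), Tgfbr2 (2.82), Smad7 (2.69) and Skil (1.73 CPM per kilobase).

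By correlation of log2 CPM over the 6 libraries, the genes most like Smad2 among those with a mean of at least 1 CPM were Smpd1, Anxa4 and Gyg (Pearson r of 0.997, 0.995 and 0.994). Smpd1, which encodes acid sphingomyelinase, measured 26.5, 26.3 and 43.3 CPM in cluster KO and 17.6, 15.3 and 14.6 CPM in wildtype libraries. With 6 libraries, 612 genes had an r over 0.95 with Smad2, so a likeness of this size was common.

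A further 105 genes of the pathway were listed by role, with earlier results of these data known. Of these, 84 were tested, and 21 were higher and 9 lower (35.7%, beside the 27.9% of all tested genes). The other 21 had too few counts to test, 5 of them with 0 counts in all libraries. Of the 30 called genes, 11 kept their call with each library left out in turn. That share was not computed over all called genes. Calls over all genes ran from 2000 to 5730 in those fits, beside 4382 with all libraries. The median log2 fold change of the 84 tested was 0.041, and each list is given below without the 10 members. Some genes stand on several lists and are counted in each.

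**Figure D4:**
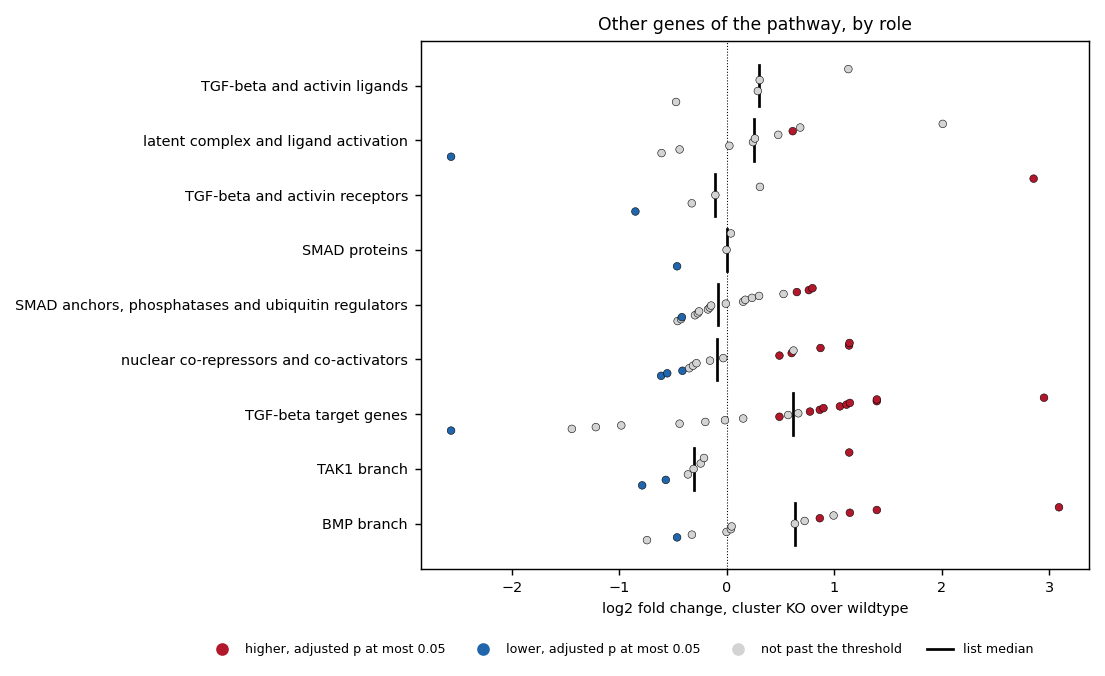
Log2 fold change of cluster KO over wildtype for the tested genes of 9 role lists, members left out, each point a gene (red higher, blue lower, grey not past an edgeR adjusted p of 0.05) and the black bar the list's median. The TGF-beta target list had 10 of its 20 genes higher and 1 lower, and the ligand list had none called. The lists were written with earlier results of these data known.

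Of the other ligands, 0 of 4 tested passed in edgeR or in any of the 13 alternatives, DESeq2 among them, beside 27.9% of all tested genes called. The inhibin subunit gene Inha was the only one of the 4 with an unadjusted edgeR p under 0.05 (0.0357, adjusted p = 0.0959). Tgfb2 had 13, 0 and 0 counts in cluster KO and 3, 5 and 0 in wildtype libraries, too few to test, and Tgfb3 measured 1.37, 2.40 and 0 CPM in cluster KO and 0.498, 1.02 and 1.59 CPM in wildtype libraries. Of the 4 tested, the one with the highest mean CPM was Gdf11, an activin-type ligand, which measured 4.48, 1.51 and 1.53 CPM in cluster KO and 2.08, 2.26 and 6.10 CPM in wildtype libraries (log2 fold change -0.47, SE 0.56, edgeR adjusted p = 0.558). Its value turned to 0.21 without wildtype 3.

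Of 10 tested genes of the latent complex and of ligand activation, 1 was higher and 1 lower (20%, beside 27.9% of all tested genes). Thbs1 encodes thrombospondin 1, which can activate latent TGF-beta. It measured 3.52, 3.11 and 1.02 CPM in cluster KO and 13.2, 15.4 and 17.0 CPM in wildtype libraries, and every cluster KO library was far below every wildtype library (log2 fold change -2.57, SE 0.39, edgeR adjusted p = 0.00279). Nrros, which anchors latent TGF-beta on myeloid cells, measured 93.7, 126 and 167 CPM in cluster KO and 79.5, 84.5 and 88.5 CPM in wildtype libraries. It rose (log2 fold change 0.61, SE 0.19, edgeR adjusted p = 0.0345), with cluster KO 3 highest and a value of 0.38 without that library. Its call was kept without cluster KO 1 only and missed without cluster KO 2 (0.0924), cluster KO 3 (0.0906), wildtype 1 (0.102), wildtype 2 (0.103) or wildtype 3 (0.0875). Thbs1 is also made by platelets, whose marker levels are given above. Monocyte and macrophage markers summed to 192 to 296 CPM in cluster KO and 174 to 182 CPM in wildtype libraries, where Ly6c2 alone held 193, 97.2 and 93.9 CPM against 102, 93.5 and 78.4 CPM and did not pass. Of these markers 2 of 13 rose, none fell, and their median log2 fold change was -0.027. The part of these cells in either gene was not tested.

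Of 5 other receptors 1 was higher and 1 lower, and of 3 other SMADs 1 was lower (40% and 33.3%, beside 27.9% of all tested genes). Acvr1b, the activin type I receptor, fell from 10.6, 14.8 and 17.9 CPM in wildtype to 7.54, 8.79 and 7.67 CPM in cluster KO libraries (log2 fold change -0.85, SE 0.24, edgeR adjusted p = 0.0248). Acvrl1 encodes ALK1, an endothelial type I receptor that works with endoglin, and it had 34, 72 and 26 counts against 0, 7 and 8. It was higher (log2 fold change 2.85, SE 0.87, edgeR adjusted p = 0.0341), but at so few wildtype counts the size of the change is uncertain. Acvr1b missed the threshold without cluster KO 2 (0.0645), cluster KO 3 (0.0603), wildtype 2 (0.0787) or wildtype 3 (0.105), and Acvrl1 without cluster KO 2 (0.144), wildtype 2 (0.0712) or wildtype 3 (0.0722). Among the SMADs, Smad5, which carries the BMP signal, was lower, with 52.4, 41.8 and 39.3 CPM in cluster KO and 56.2, 65.2 and 62.7 CPM in wildtype libraries (log2 fold change -0.46, SE 0.15, edgeR adjusted p = 0.0443). Its call also missed without cluster KO 2 (0.163), cluster KO 3 (0.107), wildtype 1 (0.065), wildtype 2 (0.15) or wildtype 3 (0.121).

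Of 18 SMAD anchors, phosphatases and ubiquitin regulators, 3 were higher and 1 was lower (22.2%, beside 27.9% of all tested genes). Fkbp1a encodes FKBP12, which holds the type I receptor inactive, and measured 241, 280 and 264 CPM in cluster KO and 162, 162 and 139 CPM in wildtype libraries (log2 fold change 0.76, SE 0.12, edgeR adjusted p = 0.00278). Stub1, a ubiquitin ligase gene, rose by 0.80 on the log2 scale (SE 0.17, edgeR adjusted p = 0.00766). Both kept their calls with each library left out. Usp9x, an X-linked deubiquitinase gene whose product acts on SMAD4, fell by 0.42 (SE 0.11, edgeR adjusted p = 0.0183), and missed the threshold without cluster KO 2 (0.0786), wildtype 1 (0.06), wildtype 2 (0.0532) or wildtype 3 (0.0677).

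Of 14 other nuclear co-repressors and co-activators, 5 were higher and 3 lower (57.1%, beside 27.9% of all tested genes). Hdac1, a histone deacetylase gene, measured 88.0, 126 and 165 CPM in cluster KO and 63.4, 60.0 and 48.4 CPM in wildtype libraries (log2 fold change 1.14, SE 0.21, edgeR adjusted p = 0.00514). Tfdp1 and E2f4 encode partners in E2F complexes that SMADs use to repress genes. Tfdp1 measured 96.4, 150 and 213 CPM in cluster KO and 81.6, 60.8 and 66.5 CPM in wildtype libraries (log2 fold change 1.14, SE 0.25, edgeR adjusted p = 0.00924). E2f4 rose by 0.87 (SE 0.24, edgeR adjusted p = 0.0214). In all of these 3 genes cluster KO 3 was highest and cluster KO 1 lay nearest to wildtype. E2f4 was at 0.56 without cluster KO 3, where its adjusted p was 0.0559, and also missed without cluster KO 2 (0.0627), wildtype 2 (0.068) or wildtype 3 (0.0953).

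The list of known TGF-beta target genes had 10 of 20 tested genes higher and 1 lower (55%, beside 27.9% of all tested genes called and 15.9% higher), with a median log2 fold change of 0.62 beside 0.00 for all tested genes. Junb, an AP-1 gene, measured 67.7, 105 and 133 CPM in cluster KO and 37.0, 39.5 and 39.9 CPM in wildtype libraries (log2 fold change 1.40, SE 0.22, edgeR adjusted p = 0.00297). Id3, which encodes an inhibitor of E-protein transcription factors and also answers to BMP, measured 87.8, 77.1 and 54.4 CPM in cluster KO and 26.4, 27.0 and 29.9 CPM in wildtype libraries (log2 fold change 1.40, SE 0.18, edgeR adjusted p = 0.0021). The cluster KO libraries were all above wildtype for both, but in opposite order to each other. Thbs1, given above, was the one that fell. Smad7 and Skil, which also belong among the targets, did not pass. The list was written with earlier results of these data known, so its share of calls is a description only. Genes on this list also answer to other signals, and the marker levels of B lineage cells moved in the same libraries. The part of either was not tested.

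In the TAK1 branch, the route from the receptors to MAP kinases, 1 of 7 genes was higher and 2 were lower (42.9%, beside 27.9% of all tested genes). Tab1 (log2 fold change -0.57, SE 0.16, edgeR adjusted p = 0.0284) and Tab3 (-0.79, SE 0.23, adjusted p = 0.0271) encode partners of the TAK1 kinase. Traf4, a receptor adaptor gene, was higher (1.14, SE 0.35, edgeR adjusted p = 0.0367) although cluster KO 1, at 7.36 CPM, lay below wildtype 2, at 8.15 CPM. Without single libraries the adjusted p of Tab1 was 0.104 (cluster KO 2), 0.0599 (cluster KO 3), 0.0583 (wildtype 1), 0.0704 (wildtype 2) and 0.104 (wildtype 3). For Tab3 it was 0.0746 (cluster KO 3), 0.0763 (wildtype 1) and 0.104 (wildtype 3), and for Traf4 0.0992 (cluster KO 2), 0.142 (cluster KO 3), 0.108 (wildtype 1), 0.0566 (wildtype 2) and 0.128 (wildtype 3).

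In the BMP branch, which runs through its own receptors and SMADs, 4 of 13 genes were higher and 1 was lower (38.5%, beside 27.9% of all tested genes). Of the called genes, Id1, Id2 and Id3 also stand on the target list and Smad5 on the SMAD list. Only Bmp4 was not counted above. Id2, an E-protein inhibitor gene like Id3, measured 143, 166 and 187 CPM in cluster KO and 107, 67.7 and 97.9 CPM in wildtype libraries (log2 fold change 0.86, SE 0.18, edgeR adjusted p = 0.00729). The ligand gene Bmp4 had 81, 75 and 29 counts against 12, 7 and 0 (log2 fold change 3.09, SE 0.82, edgeR adjusted p = 0.0202), and missed the threshold without cluster KO 2 (0.0701) or wildtype 2 (0.0595). Stroma and bone markers, from cells that make BMP4, overlapped between genotypes at 23.4 to 153 against 26.6 to 82.3 CPM, and none of the 7 tested passed in edgeR, where Col1a2 alone had an unadjusted p under 0.05 (0.0147, adjusted p = 0.0516, down to 0.0272 over the alternatives). Cxcl12 alone held 95.2, 35.8 and 9.43 CPM of these sums in cluster KO and 2.71, 30.8 and 10.5 CPM in wildtype libraries. The part of these cells in the level of Bmp4 was not tested.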

How the data were processed

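RNA-seq of bone marrow was deposited as 1 table of raw counts per Ensembl gene, with 1 column for each of 6 libraries and no normalization by the authors. Per the labels' protocols, the libraries used a poly(A), non-stranded chemistry with a Nextera XT kit and were pooled for sequencing. Per the submitters' processing notes, bcl2fastq, TopHat2, HTSeq and the mm10 build were used, but the sources used here give no version, annotation release or counting mode. Without strand, reads of overlapping antisense genes cannot be told apart.

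The 5 HTSeq summary rows entered neither library sizes nor tests (reads with more than 1 alignment took 13.4 to 16.8%, reads outside genes 7.29 to 11.1% and ambiguous reads 2.71 to 2.95% of all reads in a library). GENCODE M21 (GRCm38, the same assembly as mm10) gave symbols, positions and lengths. Groups came from the sample titles. The whole table was fitted with edgeR 4.0.16 in R 4.3.3 (TMM, filterByExpr with a minimum count of 10, robust quasi-likelihood F-test, genotype only), with Benjamini-Hochberg adjustment over 15686 genes at 0.05. A standard error is the coefficient divided by the square root of F. DESeq2 1.42.0, other scalings, no filter, a replicate block, trends of length and GC removed and leave-one-out fits were alternatives. Length trends and length classes used the median annotated transcript, which for Smad2 is 1305 bases and for Smad3 605. Their longest transcripts are 8089 and 5090 bases. The test was tried on simulated counts. Within each genotype, libraries differed beyond sampling noise (chi-square per degree of freedom 11.3 to 64.2). Limits from counts cover counting error only. The text names all members, and from each role list up to 3 called genes with the smallest p, or the most abundant gene where none was called. The members and lists were chosen with earlier results of these data known. Some genes of the lists are not reported here.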

Additional observations from a re-analysis of the deposited data

How the results depend on the processing

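With 3 libraries a genotype, most member calls lay near the threshold. Smad2 kept its call in 12 of 13 alternatives, Tgfbr1 in 6 and Tgfb1 in 4, and none of these changed sign. With 1 library left out, the members called ran from 1 to 2 higher and 0 to 1 lower, the other pathway genes from 10 to 19 higher and 1 to 16 lower, and all genes from 1258 to 3151 higher and 742 to 2579 lower. With upper-quartile scaling 1 member was higher, and 14 other pathway genes were lower. With length and GC trends removed 1 member was higher. Without the filter on low counts 0 members were lower, where more genes were tested.

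The replicate numbers of the 2 genotypes did not pair the libraries (correlations of same-numbered deviations -0.12, 0.02 and -0.09). With the replicate number as a block, 1331 genes were higher and 865 lower, with 1 member higher, 0 lower, and 12 other pathway genes higher and 1 lower. With the block and length and GC trends removed the counts were 1159 and 871 for all genes, 0 and 0 for members, and 8 and 3 for other pathway genes, and the block leaves fewer residual degrees of freedom. Only directions of values that did not pass turned. Tgfbr2 was at 0.031 with length and GC trends removed and 0.024 with the block as well. Smad3 was at 0.044 and 0.040 in these, and ran from -0.18 to 0.071 with 1 library left out. Smad4 was at -0.073 with upper-quartile scaling and ran from -0.093 to 0.19 with 1 library left out. Gdf11 ran from -1.19 to 0.21 with 1 library left out.

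Levels between genes depend on length. Per kilobase of all exons joined, Tgfb1 was at 7.63, Tgfbr1 4.97, Tgfbr2 2.79, Smad2 7.56, Smad3 5.97, Smad4 12.9, Smad7 2.54 and Skil 1.20 CPM. Per kilobase of the longest transcript, chosen after seeing the data, Tgfbr1 was at 5.65, Tgfbr2 2.82, Smad2 8.20, Smad3 6.50, Smad4 14.1, Smad7 2.69 and Skil 1.73 CPM. The cause of these changes beyond the length itself was not tested.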
